A study of Homo sapiens with 15 samples.

Results

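The RNA levels of 28 genes of cholesterol and fatty acid synthesis were followed in human MCF-10A cells with and without editing of NF1. The genes were taken from a list of symbols matched to Ensembl identifiers, 28 of the 60721 genes in the count table. All 28 were counted in every library, and all 28 were among the 17457 genes that passed the filter on low counts. By role they were 6 enzymes from acetyl-CoA to farnesyl diphosphate (HMGCS1, MVK, PMVK, MVD, IDI1 and FDPS) and 11 sterol enzymes (FDFT1, SQLE, LSS, CYP51A1, TM7SF2, MSMO1, NSDHL, HSD17B7, EBP, SC5D and DHCR7). A further 4 are regulators or sterol carriers (SREBF1, SREBF2, INSIG1 and STARD4), and 7 are enzymes of fatty acid synthesis (ACLY, ACACA, FASN, ELOVL6, SCD, FADS1 and FADS2).

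Cells build cholesterol from acetyl-CoA by way of mevalonate, farnesyl diphosphate, squalene and lanosterol, and they build fatty acids from the same precursor by way of malonyl-CoA. Most genes of both routes are targets of the sterol regulatory element binding proteins (SREBPs), which SREBF1 and SREBF2 encode. When membrane sterol is low, the escort protein SCAP carries SREBP from the endoplasmic reticulum to the Golgi, proteases release its active fragment, and the target genes are switched on as a set. When sterol is plentiful, INSIG proteins hold the complex back. Insulin and growth factor signalling are known to raise SREBP activity, and the mammary epithelium makes large amounts of lipid in lactation.

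MCF-10A is an established, non-tumorigenic human mammary epithelial line. NF1 codes for neurofibromin, which switches RAS off. The 15 libraries held poly(A) RNA of 5 genotypes with 3 libraries each: parental cells, cells with an empty vector (EV in the labels), and NF1-edited cells made with guide 1 (NF1-g1), guide 2 (NF1-g2) or both (NF1-g1/g2). All 5 groups were untreated and shared a medium with horse serum, EGF, hydrocortisone, cholera toxin and insulin, so none was starved of serum or insulin. Whether a line is 1 clone or a pool, and where the guides cut, is not given in the sources used here. The labels call the libraries biological replicates without saying whether they came from separate cultures, so p-values measure the spread between these libraries.

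Library totals ran from 46129559 to 78976917 counts, with a median of 55942785. NF1 (ENSG00000196712, chromosome 17, 31094927 to 31382116, plus strand, GRCh38) lay between 26.0 and 51.3 CPM (a gene's counts scaled to a common library total) in the 9 edited libraries and between 115 and 159 CPM in the 6 unedited ones, so the labels and the NF1 levels were in step. The epithelial markers KRT5, KRT8, KRT18 and ITGB4 were present in every library. Others varied widely: KRT14 ran from 6.44 to 1147 CPM, KRT17 from 24.1 to 1622 CPM and EPCAM from 1.85 to 103 CPM. TP63, a basal marker, ran up to 75.8 CPM but was at 0.0542 to 0.203 CPM in guide 1 cells and in guide 2 replicates 1 and 3. CDH1, which encodes E-cadherin, was at 0.0191 to 0.158 CPM in guide 1 cells and in guide 2 replicates 1 and 3, where a level of 3 counts corresponds to between 0.038 and 0.065 CPM depending on the library. Guide 2 replicate 2 stood apart from its group: the summed level of 9 epithelial markers was 8880.1 CPM there, against 1533 and 1695 CPM in the other guide 2 libraries and 1283 to 5339.9 CPM in the other genotypes. Most of that sum was KRT5, KRT17 and KRT14, at 4997, 1622 and 1147 CPM. KRT8 went the other way: it was lowest of all libraries there, at 70.2 CPM, against 159 and 167 CPM in guide 2 replicates 1 and 3. The summed fibroblast and mesenchymal markers of guide 2 replicate 2, mainly CDH2 and ZEB1, were 41.3 CPM, against 109 to 157 CPM in the other 14 libraries. The summed level of 7 adipocyte markers was 0.570 to 1.44 CPM. Of these, 2 (the hormones ADIPOQ and LEP) had no count in any library, and the others were counted at low levels. Many results below that rest on guide 2 replicate 2 are also given without it, but not all. Those given only with it include the summed level of the pathway genes in guide 2 cells and the counts of genes whose libraries did not overlap. The results of SCD5, DGAT2 and TMEM97 for guide 2 against the empty vector are also given only with it.

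Promoters of 4 members are shown because each holds a motif that SREBPs or their usual partners are known to read, and because these genes span the regulators (SREBF2, INSIG1), the entry to the pathway (HMGCS1) and a sterol enzyme (MSMO1). The sequences are from RefSeq (GRCh38.p14), 5′ to 3′ on the gene's strand, and stop before the exons of their own gene. Capitals mark matches on either strand to TCACNCCAC (a form of the sterol regulatory element), CCAAT (read by NF-Y) and GGGCGG (read by SP1). On the opposite strand the last pair reads ATTGG and CCGCCC, and neighbouring GGGCGG matches can overlap.
HMGCS1, chr5:43313513-43313662, minus strand: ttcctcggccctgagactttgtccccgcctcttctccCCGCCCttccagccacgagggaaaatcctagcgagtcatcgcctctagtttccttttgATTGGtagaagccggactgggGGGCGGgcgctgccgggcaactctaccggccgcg
SREBF2, chr22:41832855-41833078, plus strand: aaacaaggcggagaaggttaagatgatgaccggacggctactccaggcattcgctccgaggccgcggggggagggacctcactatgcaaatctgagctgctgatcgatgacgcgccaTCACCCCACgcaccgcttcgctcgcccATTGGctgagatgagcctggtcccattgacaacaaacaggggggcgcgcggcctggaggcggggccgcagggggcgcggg
INSIG1, chr7:155297628-155297775, plus strand: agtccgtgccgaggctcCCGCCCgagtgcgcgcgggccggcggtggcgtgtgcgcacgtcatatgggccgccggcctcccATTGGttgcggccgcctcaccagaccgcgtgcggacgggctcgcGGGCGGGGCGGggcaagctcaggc
MSMO1, chr4:165327419-165327622, plus strand: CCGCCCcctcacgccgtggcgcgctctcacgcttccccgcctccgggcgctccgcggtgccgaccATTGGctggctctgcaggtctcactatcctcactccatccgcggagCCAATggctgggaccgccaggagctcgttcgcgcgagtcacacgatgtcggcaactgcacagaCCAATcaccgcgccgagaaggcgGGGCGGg
The SREBF2 stretch also holds an annotated exon of SREBF2-AS1 on the other strand. Windows ran from 250 bases before to 50 after each start. The promoter set used here held a window for 25 of the 28 members and none for SQLE, FDFT1 and FASN. CCAAT was present in 20 of the 25 (80.0%), against 39.7% of all 27305 genes with a window, and GGGCGG in 24 of 25 (96.0%), against 48.3%. TCACNCCAC was found in 1 of 25, SREBF2, against 1.39% of all genes. These are counts of letters, and a missing match says only that those letters are not in that window.

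Levels between genes were compared as CPM per kilobase of annotated exon (CPM/kb), averaged over the 15 libraries. FDPS, which makes farnesyl diphosphate, was highest at 152 CPM/kb. SCD, the desaturase that makes oleate, followed at 144 CPM/kb, then ACLY, which turns citrate into acetyl-CoA, at 117 CPM/kb, MSMO1 at 114 CPM/kb, SQLE at 101 CPM/kb and FDFT1 at 91.8 CPM/kb. At the low end were TM7SF2, a sterol reductase, at 1.48 CPM/kb, CYP51A1 at 2.84 CPM/kb, SREBF1 at 4.44 CPM/kb, MVK at 5.14 CPM/kb and HSD17B7 at 5.46 CPM/kb. The CYP51A1 value is uncertain, because 79.4% of its exon bases are shared on the same strand with AC000120.2 and AC000120.3. SREBF2 stood at 27.1 CPM/kb, above SREBF1. Together the 28 genes took a median of 0.606% of all counts, and their summed level ran from 5493 CPM (guide 1 replicate 2) to 6657 CPM (guide 2 replicate 1), a ratio of 1.21. By genotype the sum was 5995 ± 151 CPM with the empty vector, 5891 ± 306 CPM in the parental line, 5754 ± 234 CPM with guide 1, 6279.8 ± 478 CPM with guide 2 and 6389 ± 56.2 CPM with both guides (SD, n = 3 per genotype).

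**Figure D1:**
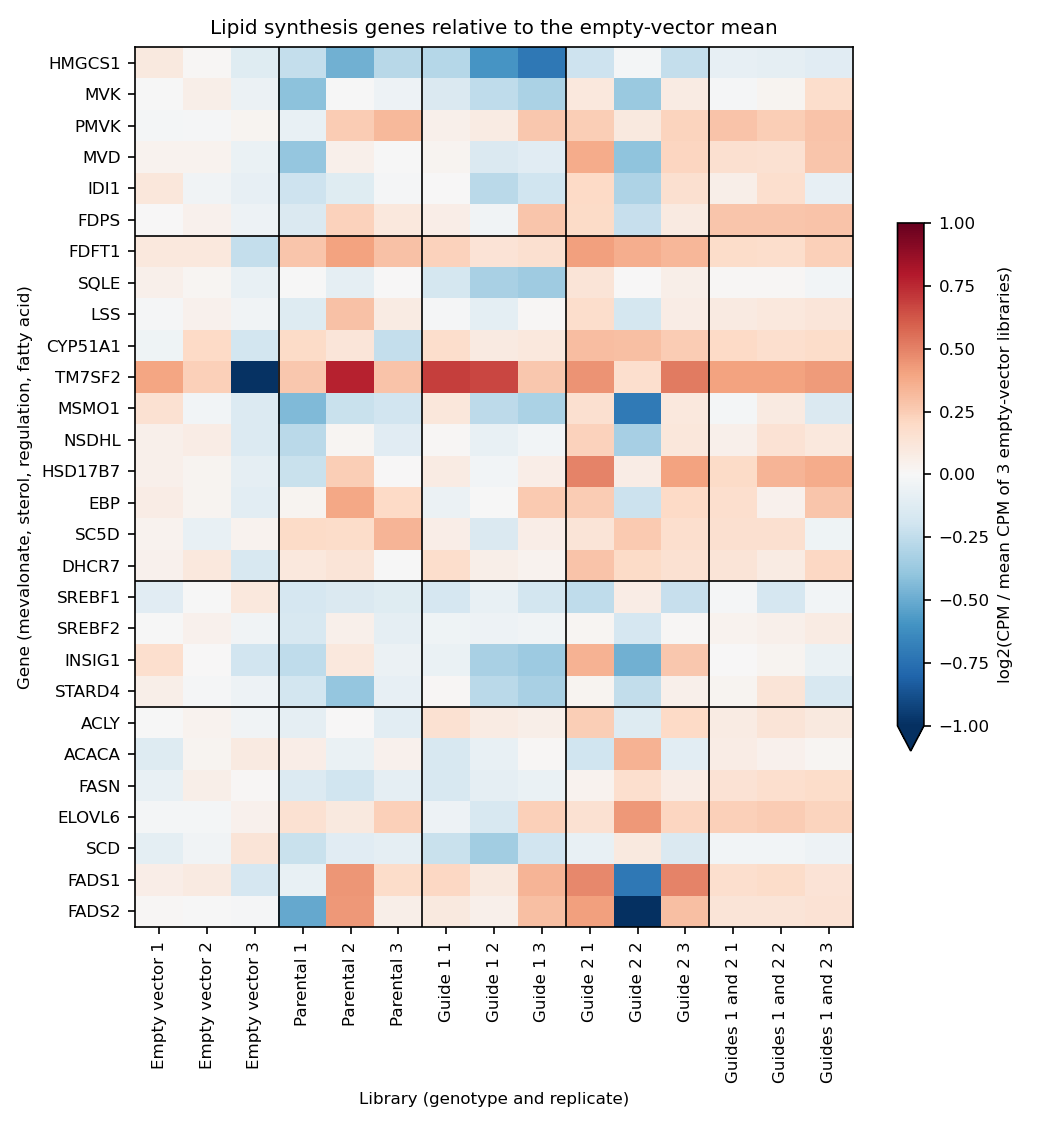
Level of each of the 28 genes in each of the 15 libraries, as log2 of CPM over the mean CPM of the 3 empty-vector libraries; rows are grouped by role and columns by genotype, and values under -1 share the darkest blue. Most cells are pale; the darkest blue cells include FADS2 in guide 2 replicate 2 and TM7SF2 in empty-vector replicate 3, and HMGCS1 is blue in the guide 1 libraries.

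The first comparison asked whether the pathway differed between edited and unedited cells, by setting the 3 edited lines, averaged, against both controls, averaged. Its p-values and intervals rest on the spread between libraries within each line. They do not include the spread among the edited lines or between the controls, so they hold for these lines only. No member of 28 changed (edgeR quasi-likelihood test, Benjamini-Hochberg adjusted p under 0.05), against 1.51% of all tested genes. Of the 28, 5 had an unadjusted p under 0.05 (CYP51A1, DHCR7, HSD17B7, FASN and ACLY), as did 15.8% of all tested genes. DESeq2 called 0 (4.24%) and limma with voom and sample quality weights called 9 (42%), the share of all tested genes being in brackets. The median log2 fold change of the members was 0.05, with a range from -0.09 (HMGCS1) to 0.22 (TM7SF2), and the median of all tested genes was 0.01. The 95% interval of the difference lay within 0.5 on the log2 scale on both sides of 0 for 26 members, all but TM7SF2 and FADS2, and within 0.25 for 17. The narrowest was that of FASN, 0.03 to 0.21, and the widest that of FADS2, -0.50 to 0.60. No member separated the 9 edited from the 6 unedited libraries in CPM, against 0.281% of all tested genes. Without guide 2 replicate 2, 2 members were higher in the edited lines, against 18% of all tested genes called in either direction. These were HSD17B7, which helps to strip methyl groups from the sterol ring, at 0.25 (edgeR adjusted p 0.0234) and ACLY at 0.17 (edgeR adjusted p 0.00864). With that library HSD17B7 stood at 0.22 (edgeR adjusted p 0.215) and ACLY at 0.14 (edgeR adjusted p 0.273).

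**Figure D2:**
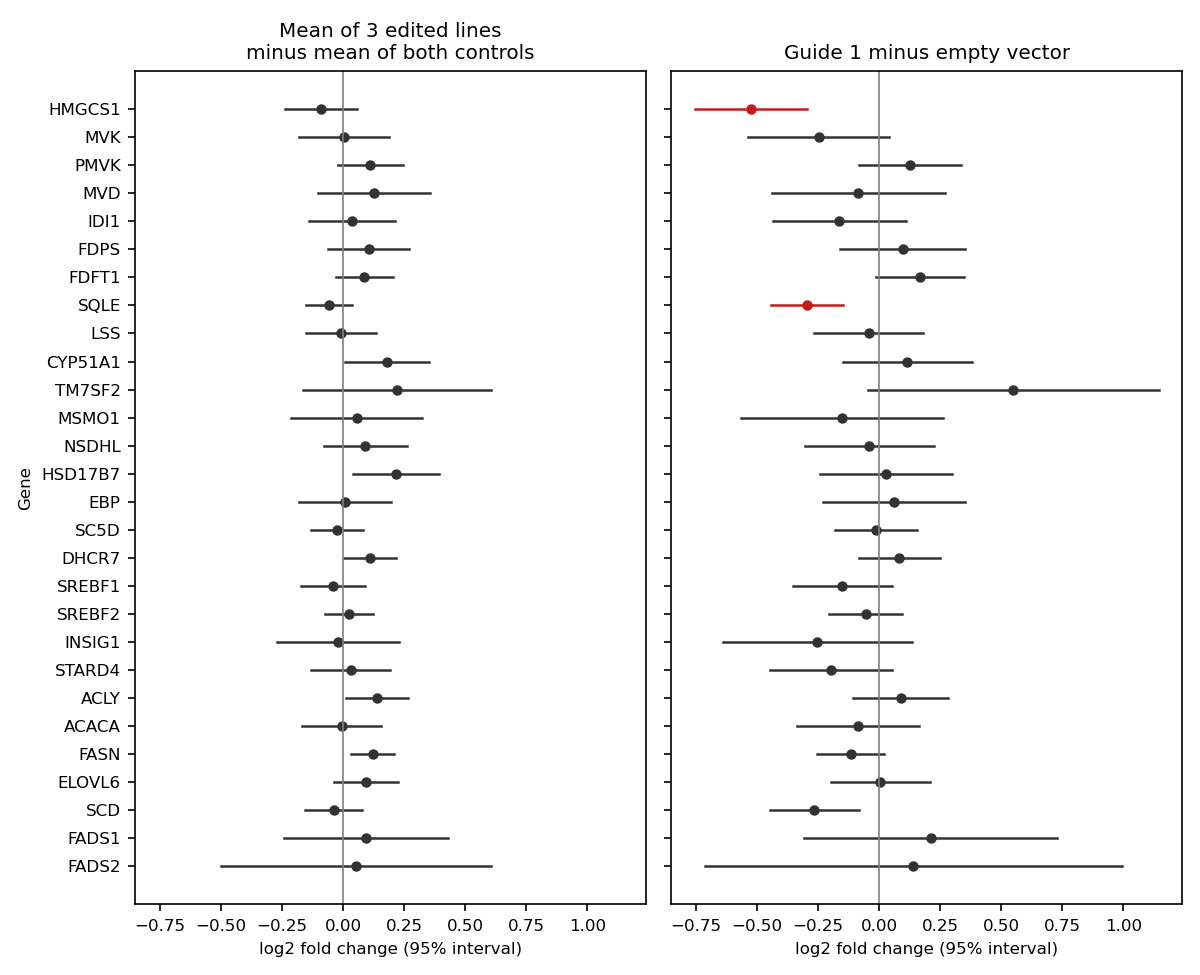
Log2 fold change (points) with its 95% interval (bars) of each of the 28 genes, for edited lines minus controls, both averaged (left) and for guide 1 minus empty vector (right); red marks an edgeR adjusted p under 0.05. The left panel holds no red bar and its longest bar is FADS2; in the right panel HMGCS1 and SQLE are red and lie below 0.

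Guide 1 cells were then compared with empty-vector cells. Of the 28 genes, 2 fell (7.14%) and none rose, where edgeR called 5.88% of all tested genes in either direction and 4.57% as lower, so the share among the members was near the background. An unadjusted p under 0.05 was found for 3 members and 21.4% of all tested genes. DESeq2 called 3 (9.44%), the third being SCD, and voom 8 (42.5%). Without guide 2 replicate 2 in the shared fit edgeR called the same 3 genes as DESeq2, against 18.1% of all tested genes. Both genes that fell encode enzymes of cholesterol synthesis, the cytosolic HMG-CoA synthase HMGCS1 and the squalene epoxidase SQLE. The median log2 fold change of the members was -0.04, against 0.02 over all tested genes. Libraries did not overlap in CPM for 9 members, 5 higher and 4 lower with guide 1 (HMGCS1, SQLE, MVK and SCD), against 36.2% of all tested genes.

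HMGCS1 (ENSG00000112972, chromosome 5, 43289395 to 43313512, minus strand) condenses acetyl-CoA with acetoacetyl-CoA at the entry to the mevalonate route. Its level was 307, 290.0 and 265 CPM with the empty vector, 243, 206 and 237 CPM in the parental line, 236, 191 and 175 CPM with guide 1, 249, 283 and 243 CPM with guide 2 and 271, 269.8 and 265 CPM with both guides. The guide 1 libraries were the lowest group and lay below every empty-vector library, but replicate 1 was inside the parental range. The means were 287 ± 21.4 CPM with the empty vector and 201 ± 31.7 CPM with guide 1 (SD, n = 3 per genotype), and the log2 fold change was -0.53 (SE 0.106, 95% interval -0.75 to -0.30, edgeR adjusted p 0.0153). Against parental cells it was -0.16 (95% interval -0.39 to 0.06, edgeR adjusted p 0.369), and parental cells themselves stood at -0.36 against the empty vector (edgeR adjusted p 0.0733). Leaving out guide 1 replicate 2 moved the edgeR adjusted p of guide 1 against the empty vector to 0.0750; without each of the other 5 libraries it was 0.0119 to 0.0436. Of the HMGCS1 exon bases, 15.0% overlap AC114947.2 on the other strand, and the use of strand in counting is not given in the sources used here. In bulk libraries such as these, fewer cells of a type and less RNA per cell cannot be told apart.

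SQLE (ENSG00000104549, chromosome 8, 124998497 to 125022283, plus strand) adds the oxygen to squalene and is a rate-limiting enzyme after the mevalonate route. Its level was 468, 456 and 429 CPM with the empty vector, 449, 423 and 452 CPM in the parental line, 399, 359 and 352 CPM with guide 1, 492, 452 and 469 CPM with guide 2 and 455, 454 and 443 CPM with both guides. All 3 guide 1 libraries lay below all of the other 12, and the ranges of the 4 other genotypes overlapped. The means were 451 ± 20.3 CPM with the empty vector and 370.1 ± 25.5 CPM with guide 1 (SD, n = 3 per genotype), a log2 fold change of -0.30 (SE 0.0679, 95% interval -0.44 to -0.15, edgeR adjusted p 0.0249). The call held when guide 1 replicate 1 was left out (0.0341) and was lost without each of the other 5 libraries, where the edgeR adjusted p was 0.0692, 0.0540 and 0.0573 without empty-vector replicates 1 to 3, and 0.107 and 0.0581 without guide 1 replicates 2 and 3. It was also lost with no filter on low counts (0.0791). Against the parental cells SQLE stood at -0.23 in guide 1 cells (95% interval -0.38 to -0.09, edgeR adjusted p 0.166; 0.0340 without guide 2 replicate 2 in the shared fit).

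Proliferation markers also differed between the libraries. The summed level of 10 proliferation genes was 1891, 1994 and 2346 CPM with the empty vector and 1809, 1811 and 3409 CPM in guide 1 libraries, and 2959 to 3538 CPM in the other 9. Guide 1 replicate 3, the lowest of the 15 libraries in HMGCS1 and SQLE, was the guide 1 library with the high proliferation sum. The part of proliferation in these levels was not tested.

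**Figure D3:**
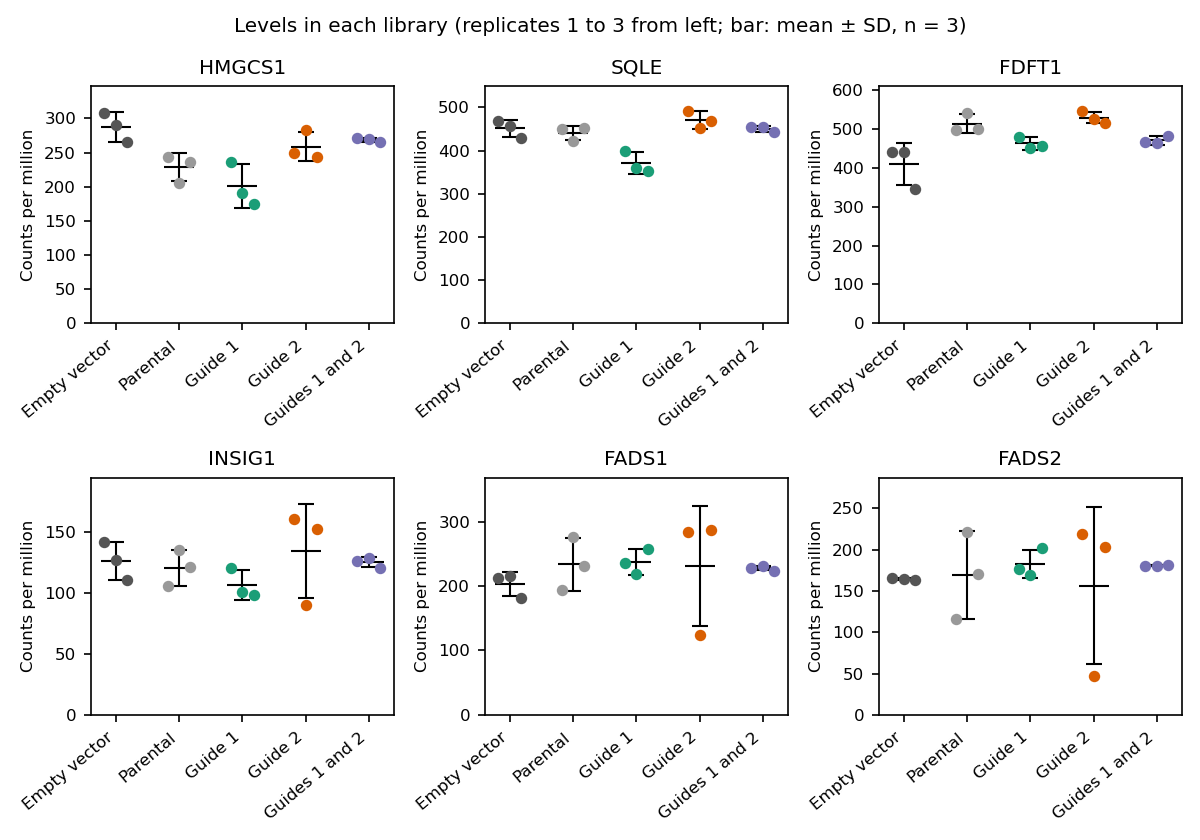
Level in CPM of 6 of the 28 genes in each library (points, replicates 1 to 3 from left within each genotype), with the mean and SD of the 3 libraries (bars); axes start at 0. SQLE is lowest in the guide 1 libraries (352 to 399 CPM), and guide 2 replicate 2 lies far below its group in INSIG1, FADS1 and FADS2.

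In guide 2 cells, 1 member of 28 rose against the empty vector and none fell, by edgeR, against 3.94% of all tested genes in either direction and 1.2% higher. DESeq2 called 1 (6.7%), also FDFT1, and voom 14 (33.2%). At an unadjusted p under 0.05 there were 6, against 18.9% of all tested genes. The gene edgeR called was FDFT1 (ENSG00000079459, chromosome 8, 11795573 to 11839309, plus strand), the squalene synthase, which commits farnesyl diphosphate to sterols. Its level was 442, 441 and 347 CPM with the empty vector, 498, 542 and 501 CPM in the parental line, 481, 451 and 457 CPM with guide 1, 545, 526 and 516 CPM with guide 2 and 467, 463 and 483 CPM with both guides. Empty-vector replicate 3 was the lowest of the 15 libraries. Every library of the other genotypes, edited or parental, was above every empty-vector library, so the empty vector was the group that stood apart. The log2 fold change was 0.36 (SE 0.0829, 95% interval 0.18 to 0.54, edgeR adjusted p 0.0307), from 409.9 ± 54.7 to 529 ± 14.8 CPM (SD, n = 3 per genotype). Parental cells differed from the empty vector by 0.30 (95% interval 0.12 to 0.48, edgeR adjusted p 0.0615), and guide 2 differed from parental cells by 0.06 (95% interval -0.12 to 0.24).

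The FDFT1 call was lost without each of 5 of the 6 libraries compared. Its edgeR adjusted p was 0.0516, 0.0518 and 0.118 without empty-vector replicates 1 to 3, and 0.109, 0.0243 and 0.0717 without guide 2 replicates 1 to 3. Without empty-vector replicate 3 its log2 fold change was 0.25. The call was also lost with no filter on low counts (0.0779) and with the fit restricted to these 2 genotypes (0.305), where edgeR called 0.0794% of all genes tested. Over all members the median log2 fold change with guide 2 was 0.06, against 0.03 over all tested genes. Libraries did not overlap for 7 members, all higher with guide 2 (FDFT1, PMVK, CYP51A1, DHCR7, SC5D, HSD17B7 and ELOVL6), against 12.2% of all tested genes in that direction.

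Without guide 2 replicate 2 the number of members called in guide 2 against empty-vector cells was 4, against 14.5% of all tested genes. FDFT1 kept its direction at 0.34 (edgeR adjusted p 0.0243). HSD17B7 was higher at 0.42 (0.0240), from 24.4, 24.0 and 22.2 CPM in empty-vector to 33.2 and 31.1 CPM in guide 2 replicates 1 and 3. FADS1, a desaturase of polyunsaturated fatty acids, was higher at 0.46 (0.0190). SREBF1, the SREBP gene most tied to fatty acid synthesis, was lower at -0.27 (0.0394), with 32.0 and 32.4 CPM against 35.2, 37.9 and 41.1 CPM in empty-vector libraries.

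In cells with both guides no member changed against the empty vector by edgeR, against 0.962% of all tested genes. DESeq2 called 0 (3.73%) and voom 5 (26.7%), and without guide 2 replicate 2 in the shared fit edgeR called 0 (6.7%). An unadjusted p under 0.05 was found for 6 members (FDPS, FDFT1, PMVK, HSD17B7, FASN and ELOVL6) and 14% of all tested genes. These 6 were all higher, with log2 fold changes from 0.14 (FASN) to 0.28 (HSD17B7) and edgeR adjusted p from 0.254 to 0.352. The 3 libraries of this genotype were close to one another: FDPS stood at 636, 639 and 641 CPM, against 527, 543 and 508 CPM with the empty vector. Libraries did not overlap for 12 members, all 12 higher with both guides, against 20.5% of all tested genes in that direction. The median over the members was 0.08, against -0.0011 over all tested genes. With the fit restricted to these 2 genotypes, edgeR called 4 of the members (HSD17B7, FDPS, PMVK and ELOVL6), against 18.7% of all genes tested there.

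The unedited controls were compared with each other in the same way. No member changed between parental and empty-vector cells by edgeR, against 4.37% of all tested genes. An unadjusted p under 0.05 was found for HMGCS1, FDFT1, SC5D and FASN, or 4 members, and for 19.8% of all tested genes. DESeq2 called 3 (8.95%), all of these but SC5D, and voom called 11 (36.3%). The largest differences among these were -0.36 for HMGCS1 (95% interval -0.59 to -0.13) and 0.30 for FDFT1. FASN, the fatty acid synthase, stood at 466, 448 and 483 CPM in parental and 488, 536 and 517 CPM in empty-vector libraries, a log2 fold change of -0.17 (95% interval -0.31 to -0.04, edgeR adjusted p 0.145). With guide 2 replicate 2 left out of the shared fit, the edgeR adjusted p was 0.0271 for HMGCS1, 0.0392 for FDFT1 and 0.0438 for FASN, with 13.9% of all tested genes called. Libraries did not overlap for 8 members, 3 higher (FDFT1, SC5D and ELOVL6) and 5 lower in parental cells (HMGCS1, MSMO1, SREBF1, STARD4 and FASN), against 32.1% of all tested genes. All comparisons with the empty vector share its 3 libraries.

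Against parental cells no member changed in any edited line by edgeR. The background was 0.149% of all tested genes for guide 1, 0.0516% for guide 2 and 0.195% for both guides. For guide 1, 2 members had an unadjusted p under 0.05 (19.9% of all tested genes), DESeq2 called 1 (3.61%), SQLE, and voom 9 (52.9%). For guide 2 the counts were 3 (7.37%), 1 (0.63%), FASN, and 14 (32.5%). For both guides they were 3 (9.98%), 1 (1.77%), FASN, and 10 (21.3%). FASN was 0.31 higher on the log2 scale with both guides than in parental cells (95% interval 0.18 to 0.45, edgeR adjusted p 0.0675), at 567, 576 and 581 against 466, 448 and 483 CPM without overlap. For guide 2 the value was 0.25 (95% interval 0.11 to 0.39, edgeR adjusted p 0.301), at 526, 576 and 539 CPM. With guide 2 replicate 2 left out, the FASN difference with both guides passed the threshold (edgeR adjusted p 0.0119, against 2.62% of all tested genes), and 3 members did so for guide 2 (MVD, HSD17B7 and ACLY, against 5.96% of all tested genes) and 2 for guide 1 (SQLE and ACLY, against 14.5%).

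The edited lines were also compared with one another. No member differed by edgeR between guide 1 and guide 2 (0.0401% of all tested genes did), between both guides and guide 1 (0.275%) or between both guides and guide 2 (0.149%). Between guide 1 and guide 2, 8 members had an unadjusted p under 0.05 (15.2% of all tested genes), DESeq2 called 1 (0.973%), SQLE, and voom 15 (20.2%). Between both guides and guide 1 the counts were 6 (13%), 3 (1.87%), namely SQLE, HMGCS1 and FASN, and 13 (46.5%). Between both guides and guide 2 they were 0 (5.8%), 0 (0.758%) and 5 (15.2%). Without guide 2 replicate 2, edgeR called 0 (0.162%), 3 (4.55%) and 0 (1.83%) in the same order. With the fit restricted to the genotypes compared, edgeR called SQLE and FASN between both guides and guide 1, against 7.67% of all genes tested. SQLE differed by -0.35 between guide 1 and guide 2 (95% interval -0.49 to -0.20, edgeR adjusted p 0.133) and by 0.27 between both guides and guide 1 (95% interval 0.13 to 0.42, edgeR adjusted p 0.155; 0.0324 without guide 2 replicate 2 in the shared fit). Guide 1 libraries lay below all guide 2 libraries in 7 members (HMGCS1, SQLE, FDFT1, CYP51A1, SC5D, FASN and SCD) and above them in none, against 5.91% of all tested genes that were lower. Both guides lay above guide 1 in 11 members and below in none, against 15.3% of all tested genes that were higher.

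Among the mevalonate enzymes other than HMGCS1, edgeR made no call in any of the 11 comparisons, and an unadjusted p under 0.05 was found for FDPS and PMVK with both guides against the empty vector and for MVK with both guides against guide 1. For guide 2 against parental cells edgeR called MVD without guide 2 replicate 2. DESeq2 called none of the 5, and voom called each in at least 1 comparison. In a single comparison voom called 15.2% to 52.9% of all tested genes. The share of all tested genes called in at least 1 comparison is not given here. FDPS ran from 449 to 641 CPM over the 15 libraries, IDI1, which isomerises isopentenyl diphosphate, from 190.2 to 270.3 CPM, and MVD, which decarboxylates the last mevalonate intermediate, from 59.7 to 102 CPM. The mevalonate kinase MVK ran from 26.2 to 39.6 CPM and the next kinase PMVK from 32.7 to 42.9 CPM. MVK with guide 1 stood at 29.6 ± 1.84 CPM, and all 3 libraries lay below each empty-vector library (34.9 ± 1.41 CPM, SD, n = 3 per genotype), with a log2 fold change of -0.25 (95% interval -0.53 to 0.04). Of these 5 genes, 3 (FDPS, IDI1 and MVD) were lowest of all libraries in guide 2 replicate 2. FDPS and IDI1 share 18.6% and 14.8% of their exon bases with RUSC1-AS1 and IDI2-AS1 on the other strand.

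Of the 11 sterol enzymes, SQLE and FDFT1 are described above. LSS, which closes squalene epoxide to lanosterol, ran from 126 to 175 CPM and DHCR7, a final reductase of the pathway, from 171 to 232 CPM. MSMO1, NSDHL and HSD17B7, which together remove methyl groups from the sterol ring, ran from 217 to 397, 49.1 to 72.2 and 20.2 to 33.2 CPM. MSMO1 and NSDHL were lowest in guide 2 replicate 2, and all 3 were highest in guide 2 replicate 1. The isomerase EBP ran from 28.4 to 43.0 CPM and the desaturase SC5D from 81.2 to 113 CPM. TM7SF2 varied most of the 11, from 1.96 to 6.63 CPM, with its lowest value in empty-vector replicate 3 and 5.11, 4.57 and 1.96 CPM in that group. Its log2 fold change with guide 1 was 0.55, with a 95% interval of -0.05 to 1.15.

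None of the 4 regulators and carriers was called by edgeR in any of the 11 comparisons, none had an unadjusted p under 0.05 and DESeq2 called none. Voom, which called 15.2% to 52.9% of all tested genes in a single comparison, called 3 of them (INSIG1, SREBF1 and SREBF2) in 7 of the comparisons. EdgeR without guide 2 replicate 2 called SREBF1, as given above. SREBF2, which encodes the SREBP of sterol synthesis, had the narrowest range of all 28 members, from 185 to 219.9 CPM, a ratio of 1.19. SREBF1 ran from 32.0 to 41.1 CPM, a ratio of 1.28. Transcript levels of the SREBP genes do not show how much of the protein is processed. STARD4, which carries cholesterol between membranes, ran from 42.9 to 61.3 CPM. INSIG1, both a brake on SREBP and one of its most responsive targets, stood at 142, 127 and 111 CPM with the empty vector, 106, 136 and 121 CPM in the parental line, 121, 101 and 98.4 CPM with guide 1, 161, 90.5 and 152 CPM with guide 2 and 126, 129 and 121 CPM with both guides. The 5 genotypes overlapped in INSIG1, and guide 2 replicate 2 was the lowest library. Against the empty vector its log2 fold change was -0.25 (95% interval -0.64 to 0.13, edgeR adjusted p 0.447) with guide 1 and -0.03 (95% interval -0.42 to 0.35, edgeR adjusted p 0.976) with both guides. With guide 2 it was 0.08 (95% interval -0.30 to 0.47, edgeR adjusted p 0.857), and 0.28 without guide 2 replicate 2 (edgeR adjusted p 0.135).

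In the fatty acid arm no member changed by edgeR in any of the 11 comparisons, while DESeq2 called SCD in 1 of them and FASN in 4. Voom called each of the 7 in at least 1 comparison. EdgeR called 4 of the 7 (ACLY, FADS1, FASN and SCD) in at least 1 comparison without guide 2 replicate 2. In a single comparison voom called 15.2% to 52.9% of all tested genes, and edgeR without that library 0.162% to 18.1%. FASN was the member with the largest share of its variance in log2(CPM + 1) between genotypes, 87.0%, followed by SQLE with 84.1%, HMGCS1 with 73.9% and FDFT1 with 72.3%. These shares without guide 2 replicate 2 were 89.3%, 86.0%, 76.3% and 70.4%, and that of ACLY went from 41.0% to 88.1%. Shares over all tested genes are not given here, so such values only rank the members against one another. SCD stood at 766, 801 and 897 CPM in empty-vector and 704, 645 and 718 CPM in guide 1 libraries. These did not overlap, and guide 1 was the lower group, at a log2 fold change of -0.26 (95% interval -0.45 to -0.08, edgeR adjusted p 0.0830; 0.0151 without guide 2 replicate 2 in the shared fit). ACLY stood at 655, 623 and 615 CPM with guide 1 and 589, 604 and 576 CPM with the empty vector. ACACA, the acetyl-CoA carboxylase that makes malonyl-CoA, ran from 155 to 227 CPM, and ELOVL6, which lengthens palmitate, from 117 to 177 CPM. Both were highest of all libraries in guide 2 replicate 2. FADS1 and FADS2 are neighbouring desaturase genes on chromosome 11. FADS1 had the smallest share of variance between genotypes of all members, 7.51%, but 59.6% without guide 2 replicate 2. The FADS2 share was 12.3% with that library and 29.6% without it.

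Among the 28 genes guide 2 replicate 2 was the library farthest from its group. The median absolute log2 deviation of the members was 0.30 there and 0.02 to 0.19 in the other 14 libraries, and over all tested genes it was also 0.30 there. It was the lowest of the 15 libraries in 12 members (LSS, IDI1, FDPS, MVD, MSMO1, NSDHL, EBP, INSIG1, SREBF2, ACLY, FADS1 and FADS2) and the highest in 2, while 25.5% of all tested genes were lowest there and 26.1% highest. FADS2 was at 219, 47.2 and 203 CPM in guide 2 replicates 1 to 3, and replicate 2 was 0.224 times the mean of the other guide 2 libraries. FADS1 was at 284, 124 and 287 CPM, a ratio of 0.433. The ratio was 0.558 for MSMO1, 0.577 for INSIG1, 0.616 for MVD and 1.41 for ACACA. The ratio of highest to lowest library of FADS2 was 4.70 over all 15 libraries and 1.92 without that library. Guide 2 replicate 1 was the highest of the 15 in 11 members, and in 4.42% of all tested genes.

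FADS2 was also low in parental replicate 1, at 116 CPM against 222 and 171 CPM in parental replicates 2 and 3. The summed epithelial markers were 5020.0, 1789 and 2983 CPM in those 3 libraries, so within both the parental and the guide 2 groups the library with the highest epithelial sum had the lowest FADS2. In guide 1 libraries the sum was 1877, 2159.9 and 1283 CPM, with FADS2 at 176, 169.9 and 202 CPM. In the empty-vector libraries the epithelial sum was 3757, 4033 and 5339.9 CPM, and FADS2 was 166, 164 and 163 CPM. With both guides the sum was 2260, 2067 and 2007 CPM, and FADS2 was 180.0, 180.0 and 181.5 CPM. The library with the highest sum had the lowest FADS2 in these groups too, but FADS2 hardly differed within the empty-vector and both-guides groups. SQLE in guide 2 replicate 2 was 452 CPM, inside the range of the empty-vector libraries. The part of epithelial state in these levels was not tested.

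**Figure D4:**
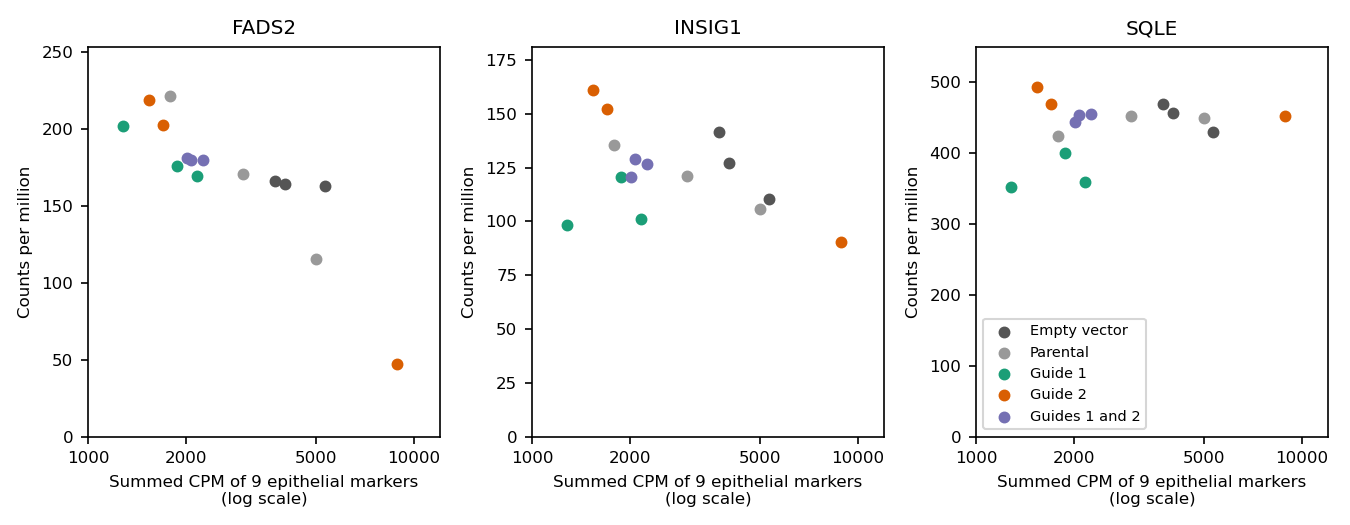
Level in CPM of FADS2, INSIG1 and SQLE against the summed CPM of 9 epithelial markers (log scale) in the 15 libraries, coloured by genotype. Guide 2 replicate 2 is the point farthest right, at 8880.1 CPM of epithelial markers, and has the lowest FADS2 and INSIG1; its SQLE lies among those of the other genotypes.

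Genes next to the pathway were counted from further lists. Of 4 further sterol enzymes (ACAT2, GGPS1, LBR and ERG28) and 7 sterol export genes and targets of LXR, the sterol-sensing nuclear receptor, none was called by edgeR or DESeq2 in any of the 11 comparisons. Voom called all 11 of these genes in at least 1 comparison, where a single comparison called 15.2% to 52.9% of all tested genes. With guide 2 replicate 2 left out edgeR called GGPS1 (guide 1 against the empty vector, and edited lines against controls), NR1H3 (guide 1 against the empty vector), and LBR and NR1H2 (guide 1 against parental cells). Against the empty vector, 1 of these 4 and 1 of these 7 had an unadjusted p under 0.05 with guide 1, and likewise with guide 2. Of 9 genes of SREBP processing, only ERLIN2, whose protein helps to degrade sterol-pathway proteins at the endoplasmic reticulum, was called by edgeR with all libraries, and by DESeq2. It rose with guide 2 by 0.40 against the empty vector (95% interval 0.25 to 0.55, edgeR adjusted p 0.00942), from 69.4, 68.2 and 66.4 to 89.7, 96.3 and 84.9 CPM. Against the empty vector ERLIN2 stood at 0.22 (95% interval 0.07 to 0.37, edgeR adjusted p 0.0988) in parental cells. The ERLIN2 level of every library of the other genotypes was above all empty-vector libraries, so the empty vector stood apart here too. With guide 2 replicate 2 left out, edgeR called ERLIN1, ERLIN2 and RNF145 among others in at least 1 comparison, and voom called 7 of the 9 with all libraries. In a single comparison these fits called 0.162% to 18.1% and 15.2% to 52.9% of all tested genes, in that order. SCAP and INSIG2 were called by none of these fits, while voom called the SREBP protease genes MBTPS1 and MBTPS2.

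Of 21 further genes of fatty acid and glycerolipid synthesis, 20 were tested. DGAT2, which makes triglyceride from diglyceride, was called by edgeR when the edited lines were averaged against both controls; no other gene of the further lists was called in that fit. It was called again without guide 2 replicate 2 (edgeR adjusted p 0.00282), with 4 further genes of this list (ELOVL7, SCD5, HSD17B12 and OXSM), 2 of SREBP processing (ERLIN2 and RNF145), 2 of uptake and storage (NPC2 and TMEM97) and GGPS1, where 18% of all tested genes were called. It was at 8.77, 9.81 and 9.72 CPM with the empty vector, 10.9, 11.4 and 10.3 CPM in the parental line, 12.7, 12.9 and 12.2 CPM with guide 1, 13.3, 13.5 and 13.5 CPM with guide 2 and 11.9, 11.5 and 11.2 CPM with both guides. The edited and the parental libraries all lay above all 3 empty-vector libraries, and those with both guides overlapped the parental libraries. Its log2 fold change was 0.31 in that comparison (95% interval 0.18 to 0.43, edgeR adjusted p 0.0212), and against the empty vector 0.41 with guide 1 (0.0183) and 0.50 with guide 2 (0.00870). With both guides it was 0.27 (95% interval 0.08 to 0.45, edgeR adjusted p 0.170), and in parental cells 0.17 (95% interval -0.02 to 0.36, edgeR adjusted p 0.301). Its partner DGAT1 rose with guide 2 by 0.34 (edgeR adjusted p 0.0436, and 0.0584 without guide 2 replicate 2). In DGAT1 too, every library of the other genotypes, parental ones included, lay above the empty-vector ones.

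SCD5, a second stearoyl-CoA desaturase, fell against the empty vector in guide 1, guide 2 and parental cells, with log2 fold changes of -0.79, -0.89 and -0.82 (edgeR adjusted p 0.0216, 0.0167 and 0.0226). Its level was 26.3, 27.0 and 42.0 CPM with the empty vector and 15.3 to 20.5 CPM in the other 12, so the empty vector was the group that stood apart. With both guides the value was -0.76 (95% interval -1.14 to -0.38, edgeR adjusted p 0.0595), with an edgeR adjusted p of 0.0127 without guide 2 replicate 2. The malic enzyme ME1, a source of the NADPH that lipid synthesis uses, was lower in parental than in empty-vector cells, at a log2 fold change of -0.45 (edgeR adjusted p 0.0453). Of 10 genes of sterol uptake, storage and transport, TMEM97 rose with guide 2 (0.50, edgeR adjusted p 0.0278). Its level was 75.4, 74.0 and 64.6 CPM with the empty vector, 93.1, 105 and 96.8 CPM in the parental line and 112, 90.8 and 103 CPM with guide 2. All libraries of the other genotypes lay above the empty-vector ones. Parental cells stood at 0.43 (95% interval 0.19 to 0.68, edgeR adjusted p 0.0501) against the empty vector, and leaving out guide 2 replicate 2 gave an edgeR adjusted p of 0.0157 there. The lipoprotein receptor SCARB1 was lower in parental than in empty-vector cells (-0.31, edgeR adjusted p 0.0410). Of the 10 proliferation genes, TOP2A and CDK1 were called by edgeR, both higher than in empty-vector cells in guide 2 cells (0.81 and 0.86), where 1.2% of all tested genes were higher, and in parental cells (0.91 and 0.73), where 1.53% were. The counts without guide 2 replicate 2 were 2 of 10 for guide 2 and 7 of 10 for parental cells. In those fits 14.5% and 13.9% of all tested genes were called in either direction.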

How the data were processed

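Poly(A) RNA of 15 MCF-10A libraries was sequenced, 3 for each of 5 genotypes, with a KAPA mRNA HyperPrep kit per the labels' protocols. The deposited count table holds whole-number counts per gene that the authors made from the reads. Per the submitters' processing notes, Trim Galore 0.6.0, STAR 2.7.8a and the build GRCh38 were used; which counter and gene models served, and whether strand was used, is not given in the sources used here. The deposited CPM table equals those counts divided by each library's total, to within 4.91e-11.

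Levels are the deposited CPM. Gene positions, exon lengths and exon overlaps come from GENCODE 29 (GRCh38), which held 58503 of the 60721 identifiers, and promoter windows from RefSeq (GRCh38.p14). Counts were fitted with edgeR 4.0.16 (TMM scaling factors 0.9725 to 1.0167, filterByExpr by genotype, quasi-likelihood test of a group-means model over all 15 libraries, 10 residual degrees of freedom, so all groups share an estimate of spread). P-values were adjusted over all 17457 genes tested by Benjamini-Hochberg, with a threshold of 0.05. Log2 fold changes and their 95% intervals come from that fit, with standard errors on 12.95 total degrees of freedom. Precision is set by the 3 libraries per genotype more than by depth. Alternatives were RLE scaling, no filter beyond 1 count, a replicate block, a fit restricted to the compared genotypes, DESeq2 1.42.0, limma 3.58.1 (voom with sample quality weights) and each library left out. The shared fit without guide 2 replicate 2 was added after seeing the data.

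On simulated counts for 17174 genes of the guide 1 against empty-vector comparison, the fit called 49% of 198 genes changed 2-fold, and 6.7% of its calls were false. In the parental against empty-vector comparison of the same simulated counts, where no gene was changed, it called 0 genes. Replicate numbers were not shown to pair the libraries: same-numbered libraries had a mean correlation of deviations of -0.05 over 30 pairs, with a range from -0.75 to 0.28. No 2 replicates agreed within sampling noise.

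The 28 genes and the further lists were chosen with earlier results of these data known. All 28 and NF1 are named; from each further list the genes called in any of the 11 comparisons are named, at most 4 per list, and any other gene named was chosen after its values were seen. The result of 1 gene of the SREBP processing list is not reported here.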

Additional observations from a re-analysis of the deposited data

Results flagged for a closer look

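NF1 itself differed between the edited lines when these were tested directly against one another. Its log2 fold change was 0.69 for guide 1 minus guide 2 (edgeR adjusted p 0.0121), with more NF1 RNA left in all 3 guide 1 libraries than in any guide 2 library, and -0.76 for both guides minus guide 1 (edgeR adjusted p 0.00411).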

How the results depend on the processing

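Numbers of the 28 genes called are given in the order guide 1, guide 2, both guides and parental cells against the empty vector; guide 1, guide 2 and both guides against parental cells; guide 1 against guide 2; both guides against guide 1 and against guide 2; and edited lines against controls. The values reported were 2, 1, 0, 0, 0, 0, 0, 0, 0, 0 and 0. They were identical with RLE scaling. Voom with sample quality weights gave 8, 14, 5, 11, 9, 14, 10, 15, 13, 5 and 9, and DESeq2 gave 3, 1, 0, 3, 1, 1, 1, 1, 3, 0 and 0. The voom weights ran from 0.0518 (guide 2 replicate 2) to 3.82 (parental replicate 3). The cause of the differences in counts was not tested. With no filter on low counts the first 2 became 1 and 0. With only the compared genotypes fitted, guide 2 against the empty vector gave 0, both guides against the empty vector 4 and both guides against guide 1 2. The fit with guide 2 replicate 2 left out, added after seeing the data, gave 3 for guide 1 and 3 for parental cells against the empty vector, 2 and 1 for guide 1 and both guides against parental cells, and 3 for both guides against guide 1. Leaving out each compared library in turn gave 0 to 2 for guide 1 and 0 to 4 for guide 2 against the empty vector, 0 to 3 for guide 2 against parental cells, 0 to 2 for guide 1 against guide 2 (2 without guide 1 replicate 3, SQLE and ELOVL6), 0 to 2 for both guides against guide 1 (2 without guide 1 replicate 3, FASN and ELOVL6), 0 to 2 for edited lines against controls, and 0 in the other 5. With the replicate block, guide 2 against the empty vector gave 0 in place of 1 (FDFT1, edgeR adjusted p 0.0535). The other counts were as reported. The replicate numbers were not shown to pair the libraries, and it is not known whether they do. None of the log2 fold changes of HMGCS1, SQLE, FDFT1 and NF1 against the empty vector changed sign under any alternative.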
